A study of Mus musculus with 3 samples.

Results

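Synaptotagmin genes were followed across 3 organ primordia of the mouse gut, with Syt10 at the centre. The family comprised Syt1, Syt2, Syt3, Syt4, Syt5, Syt7, Syt9, Syt10, Syt11 and Syt13. It was selected on the signals of Syt10 in these same arrays, whose difference between the organs was already known, so every difference of Syt10 is given as a description and has no test. A gene counted as measurable when a probe of the array carried a transcript of it in RefSeq, which held for 9 of the 10 genes, out of 16998 genes with such a probe. Syt5 is named only. The 9 genes had 18 probes, of which 13 read well above background on every array, 3 on some arrays and 2 on none.

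RNA came from the intestine, stomach and esophagus primordia of E11.5 mouse embryos of the ICR strain, with no treatment or mutation in any group. Each organ was hybridised to 1 array, so no difference has a replicate check, no p-value is given, and the spread between embryos was not measured. The labels do not say how many embryos entered a sample or whether they were pooled, and their extraction text names stomach for all samples, so the organ was read from the title and the tissue label. In whole organs, fewer cells of a type and less RNA per cell cannot be told apart.

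Marker genes followed the organ labels. Cdx2, the homeobox gene of intestinal epithelium, had a log2 level of 1.85 in intestine and −4.37 in stomach and was not well above background in esophagus. A level is log2 of the spot's processed signal over the 75th percentile of its own array, and it can be set against other organs only within a probe. Barx1, a homeobox gene of stomach mesenchyme, read −4.39 in intestine, 4.43 in stomach and 0.87 in esophagus. Pax9, a regulator of foregut endoderm, was not well above background in intestine and read −3.66 in stomach and −0.72 in esophagus. Of 6 organ markers (also Hoxc9, Sox2 and Trp63), 2 were higher and 4 lower by at least 2-fold in intestine than in esophagus.

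Synaptotagmins are membrane proteins of secretory vesicles that carry a pair of C2 domains. In many of them the C2 domains bind calcium and membrane lipids and so couple a rise in calcium to fusion of the vesicle by SNARE proteins, the machinery that pulls vesicle and target membranes together. Members differ in calcium affinity, in speed and in the vesicle they serve, and some do not bind calcium through the first C2 domain. Syt10 belongs with Syt3 and Syt6 to a subgroup joined by disulfide bonds, and in neurons of the mouse olfactory bulb it is the calcium sensor for secretion of insulin-like growth factor 1.

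Syt10 was by far the most uneven member across the organs. Its probe A_51_P318830 had a processed signal of 43131 in intestine, 3047 in stomach and 17.6 in esophagus, while the 75th percentile of those arrays was 1023, 334 and 393. As log2 levels these were 5.40 in intestine, 3.19 in stomach and −4.49 in esophagus. Intestine was highest, stomach was also far above the 75th percentile, and esophagus was low but still well above background. The differences were 9.88 log2 units for intestine minus esophagus, 7.67 for stomach minus esophagus and 2.21 for intestine minus stomach, or 944-fold, 204-fold and 4.62-fold. The scanner's own error model, which covers a single spot and not the embryos, gave standard errors of 0.24, 0.24 and 0.20 log2 units for them.

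Among all genes measured on both arrays, this Syt10 probe ranked 1st of 13100 for intestine minus esophagus, ahead of Mab21l2 at 7.33. It stayed 1st of 13905 once genes dim in esophagus were placed by their lower bounds. Cdx2 had such a bound at 7.65, above Mab21l2, so its place against Syt10 is not known. The Syt10 probe also ranked 1st of 12923 for stomach minus esophagus, ahead of Hoxa7 at 4.96, and 3rd with genes placed by their bounds. Since a bound is a least value, ranks that include bounds are the best possible ones. For intestine minus stomach it ranked 100th of 13273, and the top gene there was Lgals2, a galectin gene, at 6.68. The extreme position of Syt10 was thus a property of both comparisons with esophagus, which share the esophagus array and its single low spot.

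The esophagus spot itself had a raw median signal of 45 over a local background of 18.5. The same spot on the other arrays read 46380.5 over 18.5 in intestine and 3258 over 17.5 in stomach. None of the 3 spots was saturated or marked as an outlier, and the probe was printed once per array. Spots printed around it showed no such pattern. Of the 14 spots within 2 rows and 1 column, 9 were measured in both intestine and esophagus, with differences from −1.81 to 0.40, and 8 in both stomach and esophagus, with differences from −0.66 to 0.16.

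The array carried a further probe for the same Syt10 transcript, and it did not show the pattern. Probe A_52_P77155 had a processed signal of 4.67 in intestine, 2.50 in stomach and 4.12 in esophagus. It was not well above background on any array, and the error model put 43.8%, 58.7% and 45.5% on these signals, so no fold is given from it. The large differences of Syt10 therefore rest on 1 probe of 2. Taking the median of both probes gave 4.34 log2 units for intestine minus esophagus, 3.59 for stomach minus esophagus and 0.75 for intestine minus stomach, but these values average in the dim probe and are no estimate of a fold. Which parts of the transcript the probes bind was not examined here, and why they disagree was not tested.

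Such a disagreement was uncommon on these arrays among all genes with a probe bright in intestine. Among 3014 genes with 2 or more probes whose brightest probe lay above the 75th percentile in intestine, 24 genes, or 0.796%, had no other probe well above background on any array. Among all 5509 multi-probe genes measured on at least 1 array the share was 7.79%. Of the 46 multi-probe genes higher by at least 4-fold in intestine than in esophagus and measured on both arrays, it held for 2, one of them Syt10, and both were among the 27 of these genes whose brightest probe also lay above the 75th percentile in intestine (7.41%). With Syt10 itself 1 of the 2, so few genes do not show how usual the disagreement is for a gene of this kind.

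**Figure D1:**
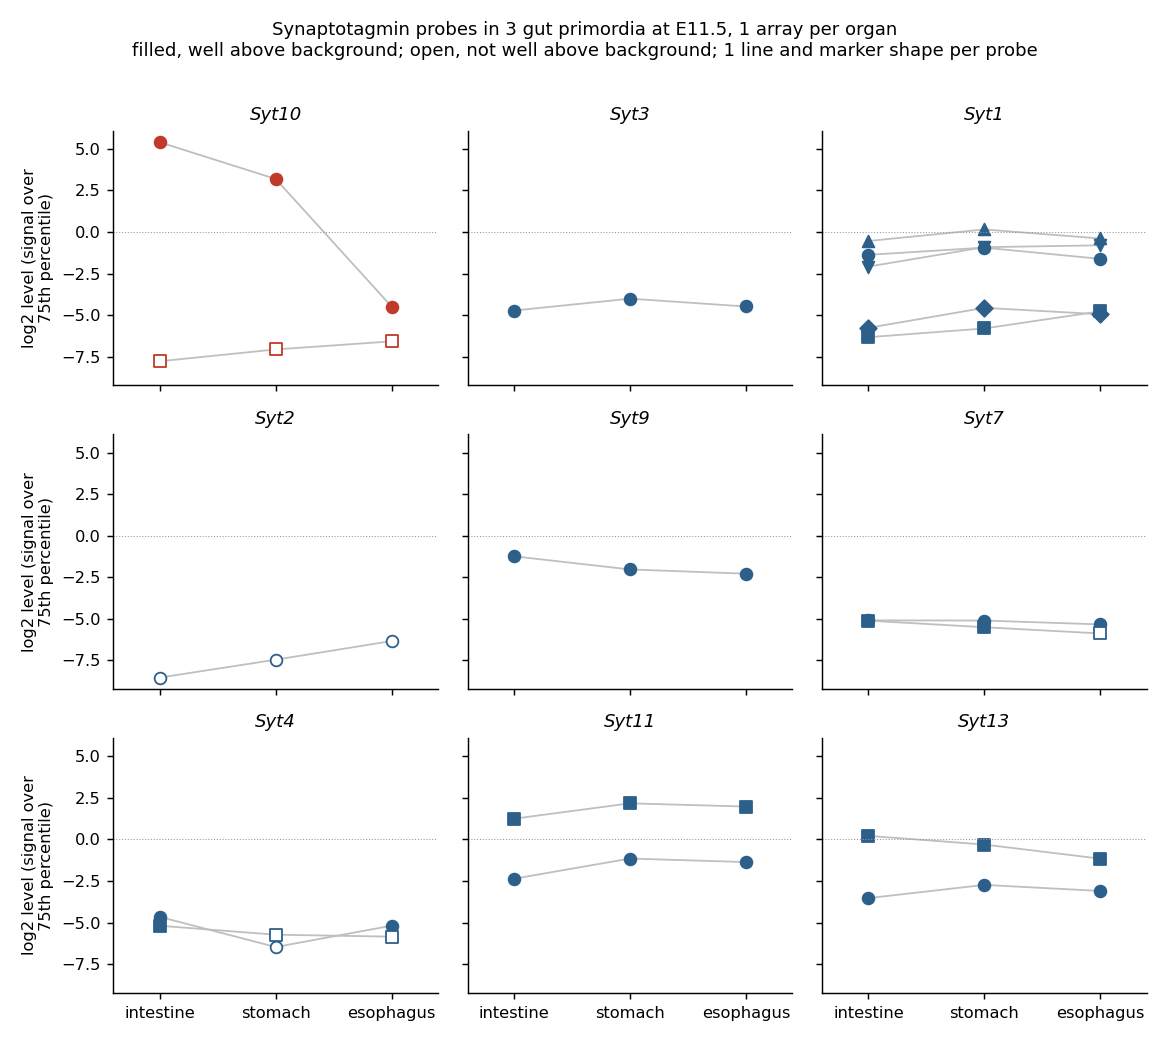
Each panel plots 1 synaptotagmin gene, with organ on the x axis and the log2 level (signal over the array's 75th percentile) on the y axis; each line is 1 probe, filled markers are well above background and open markers are not. The red filled Syt10 probe reads 5.40 in intestine, 3.19 in stomach and −4.49 in esophagus, while the open Syt10 probe and the probes of the other genes stay far flatter.

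The promoters of genes higher by at least 2-fold in intestine than in esophagus are shown for the members that RefSeq's GRCm38.p6 promoter table held, which were Syt10 and Syt9. Syt13 is named only. Each window is the 250 bases before the gene's start, read 5′ to 3′ on the gene's strand, and capitals mark the letters CCAAT, and those of the GC box, GGGCGG, on either strand, none of which overlap.
Syt10, chr15:89841861-89842110, minus strand: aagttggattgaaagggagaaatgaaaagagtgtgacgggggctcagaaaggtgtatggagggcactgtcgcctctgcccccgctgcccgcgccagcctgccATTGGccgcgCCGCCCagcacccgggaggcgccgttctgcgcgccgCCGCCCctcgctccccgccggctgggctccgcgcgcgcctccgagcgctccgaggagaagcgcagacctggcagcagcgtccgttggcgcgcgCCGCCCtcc
Syt9, chr7:107370540-107370789, plus strand: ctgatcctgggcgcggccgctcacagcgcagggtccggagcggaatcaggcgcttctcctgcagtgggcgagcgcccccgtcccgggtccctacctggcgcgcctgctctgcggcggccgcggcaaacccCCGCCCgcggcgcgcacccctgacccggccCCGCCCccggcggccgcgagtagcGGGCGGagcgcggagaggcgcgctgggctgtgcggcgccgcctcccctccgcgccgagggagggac

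The Syt10 window was 72% G and C and held 32 CG dinucleotides, more than 95.4% of the 32851 promoters in the table, whose median was 6. It contained 1 CCAAT match, placed 148 bases before the start, and 3 GC boxes. The Syt9 window was 80.4% G and C with 40 CG dinucleotides, more than 98.7% of promoters, and contained 3 GC boxes and 0 CCAAT matches. CCAAT occurred in 33.8% and GGGCGG in 32.7% of all promoter windows. On either strand, neither window contained TATAAA, found in 12.4% of promoters. Neither contained TTTATG, a spelling of the motif of Cdx factors found in 10.76% of them. These traits did not set the 2 genes apart from the family. A window of Syt2, which was dim in every organ, was 76% G and C with 30 CG dinucleotides and 3 GC boxes. The remaining windows of members held from 5 to 22 CG dinucleotides. No window of a member contained TATAAA or TTTATG. All of these are matches of letters in the windows and are not evidence of binding.

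No measured gene next to Syt10 on chromosome 15 showed its order across the organs. Of the 3 protein-coding genes on each side, Acr, Rabl2, Cpne8 and Kif21a had measured probes. Rabl2, the nearest measured gene, differed by −0.05 log2 units for intestine minus esophagus and 0.00 for stomach minus esophagus. Kif21a, a kinesin gene, read 0.17 and 0.21, and Acr, the gene of the sperm protease acrosin, −0.93 and 0.26 for the same comparisons. Cpne8, a copine gene whose protein also has C2 domains, had signals of 708 in intestine, 21.6 in stomach and 82.3 in esophagus. It read 1.72 for intestine minus esophagus, −1.70 for stomach minus esophagus and 3.42 for intestine minus stomach, beside 2.21 there for Syt10. Like Syt10 it was highest in intestine, but it was lowest in stomach and so departed from the order of Syt10.

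The 5 genes whose 3 differences lay closest to those of Syt10, out of 13001 genes compared over the 3 arrays, were Nepn, Colec10, Nkx2-3, Saa2 and Scin. Closeness was the Euclidean distance over the 3 log2 differences, and even the nearest gene was 5.41 log2 units away. Nepn, which encodes a small leucine-rich proteoglycan, had signals of 2167 in intestine and 3031 in stomach and was not well above background in esophagus. Its fold was at least 118 for intestine over esophagus and at least 507 for stomach over esophagus, and intestine minus stomach was −2.10. A bound of this kind sets the bright array against the higher of the dim probe's own signal and the lowest signal that passed as well above background on the dim array.

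Colec10, a collectin gene, had signals of 18446 in intestine, 1880 in stomach and 138 in esophagus, and its differences were 5.68, 4.0 and 1.68 for intestine minus esophagus, stomach minus esophagus and intestine minus stomach. Nkx2-3, a homeobox gene of gut mesenchyme, had signals of 7850 in intestine, 184 in stomach and 26.6 in esophagus, with differences of 6.83, 3.03 and 3.80. Both kept the order of Syt10 across the organs, with a smaller contrast to esophagus. Saa2, a serum amyloid A gene, differed by 5.69, 3.27 and 2.42, a value that is uncertain because it has a near-identical copy in the genome. Scin, the gene of the actin-severing protein scinderin, was dim in esophagus and at least 37.6-fold higher in intestine and at least 11.4-fold higher in stomach. None of the 5 had a further named probe.

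**Figure D2:**
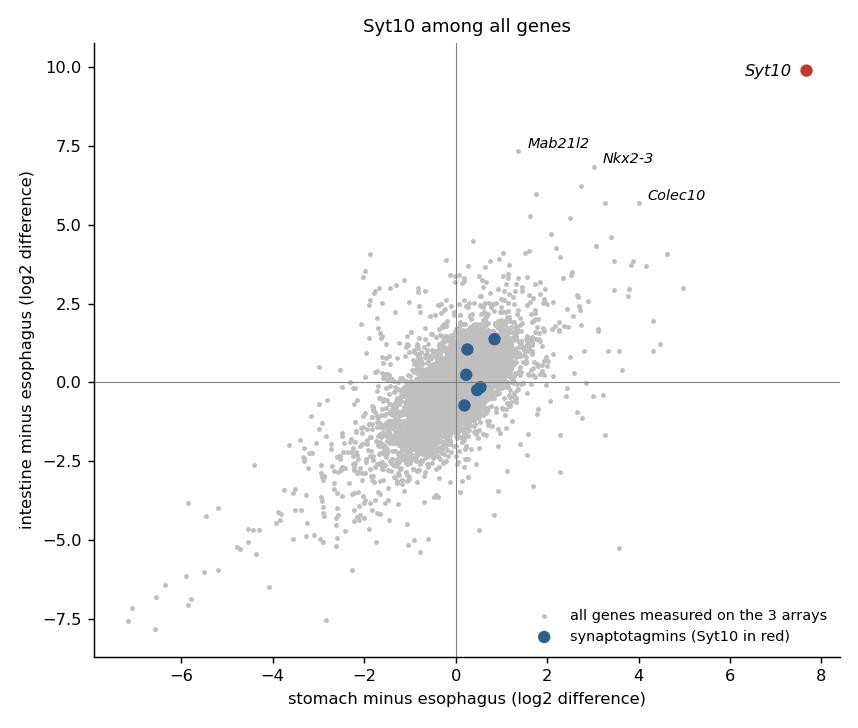
Each point is 1 gene well above background on all 3 arrays, with stomach minus esophagus on the x axis and intestine minus esophagus on the y axis (log2 differences that share the esophagus array). Syt10 (red) lies alone at 7.67 and 9.88, whereas the other synaptotagmins (blue) lie within the cloud of all genes.

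Syt3, a partner of Syt10 in the disulfide-linked subgroup, differed far less between the organs than Syt10. Its single probe had signals of 38.7 in intestine, 20.7 in stomach and 17.6 in esophagus, or log2 levels of −4.72, −4.01 and −4.48. It was well above background in every organ, and the differences were −0.24 ± 0.28 for intestine minus esophagus, 0.47 ± 0.29 for stomach minus esophagus and −0.71 ± 0.25 for intestine minus stomach (here and below ± is the error-model standard error of 1 spot per array). For scale, probes of the same gene disagreed by a median SD of 0.46, 0.25 and 0.31 log2 units in these comparisons over all genes with several probes. The difference between intestine and esophagus was within these errors, and it read 0.26 under both median centring and quantile normalization and −0.85 after normexp background correction. Intestine minus stomach exceeded both errors, and after normexp correction it was −1.06.

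The fast sensors of synchronous release are Syt1, Syt2 and Syt9, of which Syt1 is the main one at forebrain synapses. Syt1 was measured by 5 probes on every array. The probe with the highest mean had signals of 703 in intestine, 372 in stomach and 300 in esophagus. Stomach was the highest of its levels and the differences were −0.15 ± 0.20 for intestine minus esophagus, 0.54 ± 0.20 for stomach minus esophagus and −0.69 ± 0.20 for intestine minus stomach. Across the 5 probes the same differences ran from −1.55 to 0.24, from −1.03 to 0.67 and from −1.21 to −0.43. Only the last kept its sign over all probes, so Syt1 read lower in intestine than in stomach by every probe, while its order against esophagus depended on the probe. Median centring turned the difference between intestine and esophagus to 0.35.

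Syt2, the fast sensor of hindbrain and neuromuscular synapses, was not well above background in any organ. Its probe had signals of 2.76 in intestine, 1.90 in stomach and 4.87 in esophagus, and no difference is given. Syt9 had signals of 434 in intestine, 82.0 in stomach and 80.8 in esophagus, or log2 levels of −1.24, −2.03 and −2.28. Intestine was the highest, and stomach and esophagus lay close together. The differences were 1.05 ± 0.21 for intestine minus esophagus, 0.26 ± 0.21 for stomach minus esophagus and 0.79 ± 0.21 for intestine minus stomach. Higher differences than these were read in 7.80% of genes for intestine minus esophagus and in 7.54% for intestine minus stomach.

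Syt7 is the slow, high-affinity sensor of asynchronous release and of lysosome exocytosis. Its probe with the highest mean had signals of 30.1 in intestine, 9.74 in stomach and 9.76 in esophagus. Relative to each array's 75th percentile these were nearly equal, at −5.09, −5.10 and −5.33 log2 units. The differences were 0.24 ± 0.37, 0.23 ± 0.42 and 0.01 ± 0.33 for intestine minus esophagus, stomach minus esophagus and intestine minus stomach, all within their error. The other probe, which carries a different Syt7 transcript, was dim in esophagus and read 0.39 ± 0.35 for intestine minus stomach. After normexp background correction the Syt7 values were −0.83 for intestine minus esophagus and −1.06 for intestine minus stomach, so at these low signals the sign changed with the background step.

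Syt4 and Syt11 do not bind calcium through the first of their C2 domains. Syt4, an immediate-early gene of neurons whose protein sits on dense-core vesicles, was weak. Its probe with the highest mean had signals of 40.6 in intestine, 3.78 in stomach, where it was not well above background, and 10.8 in esophagus. Intestine minus esophagus was 0.53 ± 0.35, intestine was at least 2.27-fold higher than stomach, and stomach was at least 1.57-fold lower than esophagus. The other Syt4 probe was well above background in intestine alone, where it was at least 1.53-fold higher than esophagus and at least 1.45-fold higher than stomach. Both probes thus read Syt4 highest in intestine, although normexp correction turned intestine minus esophagus to −0.81.

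Syt11 had signals of 2436 in intestine, 1508 in stomach and 1552 in esophagus. It read lower in intestine than in both other organs, by −0.73 ± 0.20 against esophagus and −0.92 ± 0.20 against stomach, and stomach minus esophagus was 0.19 ± 0.20. The other Syt11 probe had signals of 199 in intestine, 151 in stomach and 153 in esophagus. It gave the same order, with −1.0 and −1.21 for intestine against esophagus and stomach and 0.21 for stomach minus esophagus. Syt11 was the lowest member in both comparisons of intestine, but not under every alternative. After normexp correction it read −0.60 against esophagus and −0.77 against stomach. Syt3 was then lower, at −0.85 and −1.06, as was Syt7, at −0.83 and −1.06. With the median of a gene's probes Syt1 was lower against stomach, at −1.14 beside −1.07 for Syt11.

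Syt13 is an atypical synaptotagmin that has been linked to endocrine progenitors of the mouse pancreas. Its probe with the highest mean had signals of 1189 in intestine, 271 in stomach and 177 in esophagus, or log2 levels of 0.22, −0.30 and −1.15. Intestine was highest and esophagus lowest, with 1.37 ± 0.20 for intestine minus esophagus, 0.85 ± 0.20 for stomach minus esophagus and 0.52 ± 0.20 for intestine minus stomach. The other probe had signals of 88.8 in intestine, 50.3 in stomach and 46.0 in esophagus. It read −0.43 ± 0.21, 0.36 ± 0.22 and −0.80 ± 0.21 for the same comparisons, so the probes agreed only that stomach was above esophagus. With the median of both probes, intestine minus stomach was −0.14.

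Set against its family, Syt10 stood apart in both comparisons with esophagus and less so between intestine and stomach. In intestine against esophagus, 3 of 8 members with a value were higher by at least 2-fold (Syt10, Syt13 and Syt9) and 0 were lower, where 8.40% of the 14462 genes compared were higher and 11.5% lower by that fold. The calls of Syt9 and Syt13 were not stable, as Syt9 read 0.65 after normexp correction and Syt13 0.47 with the median of its probes, which left 2 members past the fold under each of these. Over all genes, 655 of 13343 and 1113 of 13792 were that much higher under these settings. Median centring and quantile normalization gave 4, with Syt4 added, but 3779 of 14216 and 1859 of 14210 genes were then higher by that fold. In stomach against esophagus, 1 of 8 members was at least 2-fold higher, which was Syt10, and 0 were lower, beside 4.14% and 5.71% of 13740 genes. In intestine against stomach, 2 of 8 were at least 2-fold higher, Syt10 and, as a bound, Syt4, and 0 were lower, beside 4.77% and 7.18% of 14384 genes. After normexp correction that balance turned, with 1 of 7 members higher (Syt10) and 2 lower (Syt3 and Syt7, both −1.06). In that setting 268 of 13416 genes were higher and 1752 lower.

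At 4-fold, Syt10 was the single member past the mark in each comparison, on the higher side. That much higher were 1.75% of all genes for intestine minus esophagus, 0.684% for stomach minus esophagus and 1.38% for intestine minus stomach, and 3.70%, 1.58% and 1.24% were that much lower, where no member was. The gap between Syt10 and the next member was 8.51 log2 units for intestine minus esophagus and 6.82 for stomach minus esophagus, with Syt13 next in both. For intestine minus stomach the gap was at most 1.03, because the value of Syt4 next to it is a lower bound. Because the family was assembled around Syt10, these gaps describe the arrays and carry no test.

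The 7 other members with a value had a median of 0.24 for intestine minus esophagus, in a range from −0.73 to 1.37, beside 0.13 over all genes. For stomach minus esophagus the median was 0.26, in a range from −0.65 to 0.85, beside 0.15 over all genes. For intestine minus stomach it was 0.01, in a range from −0.92 to 1.18, beside −0.02 over all genes. Every value measured on both arrays lay inside the middle 95% of all genes, which ran from −2.36 to 1.72, from −1.60 to 1.21 and from −1.60 to 1.46. The ends of −0.65 and 1.18 are bounds of Syt4, which was dim in stomach. Its differences there may be larger and cannot be placed inside or outside that range. After normexp correction the medians for the comparisons of intestine turned to −0.60 and −0.71.

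**Figure D3:**
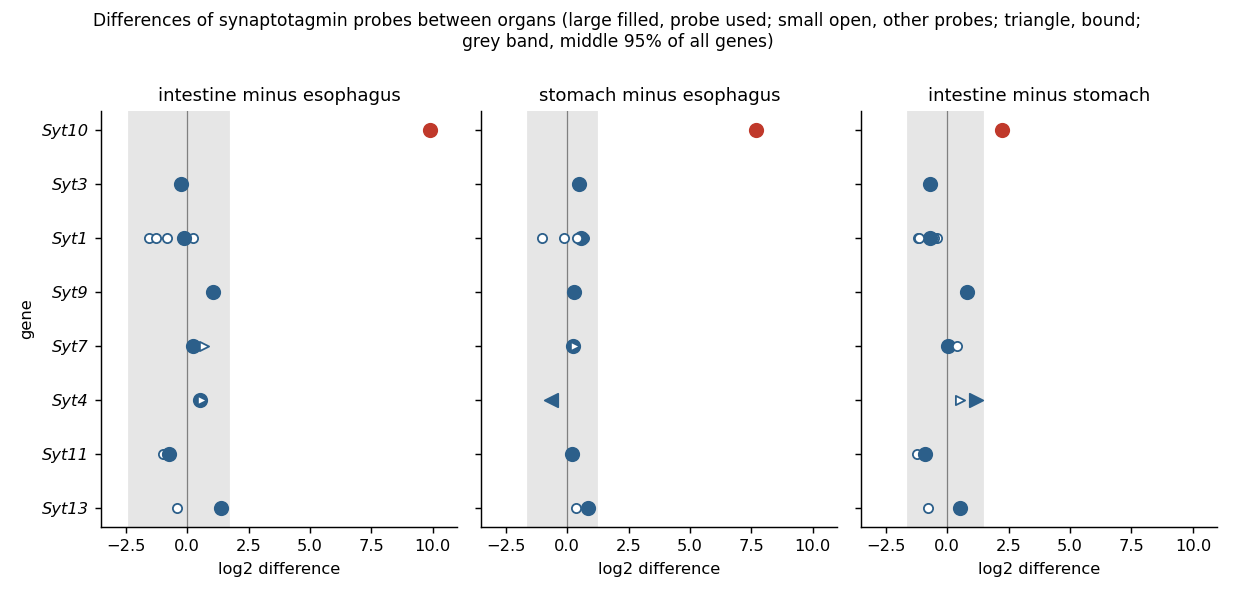
Each row is 1 synaptotagmin gene and each panel 1 comparison, with the log2 difference on the x axis; large filled markers are the probe used, small open markers other probes, triangles bounds, and the grey band holds the middle 95% of all genes. Syt10 (red) lies at 9.88, 7.67 and 2.21, outside the band in every panel, and all other markers of the probes used lie inside it. The triangles of Syt4 are bounds, so its differences from stomach may be larger than drawn.

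The 7 synaptotagmins outside the family as chosen here all had a probe, and 4 of them had a value in each comparison. Their medians were −0.64, −0.23 and −0.42 for intestine minus esophagus, stomach minus esophagus and intestine minus stomach. Syt17 was at least 2-fold higher in intestine and in stomach than in esophagus, with bounds of 1.15 and 1.03 log2 units. Syt14, which binds no calcium, was lower in intestine than in esophagus (−1.68) and than in stomach (−1.21). Syt6, another partner of Syt10 in its subgroup, had signals of 11.9 in intestine, 4.80 in stomach and 3.97 in esophagus, was well above background in intestine alone and gave no usable fold.

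Other C2-domain proteins of exocytosis (synaptotagmin-like proteins, Doc2 proteins, rabphilin and extended synaptotagmins) did not show the contrast of Syt10. Of 10 with a value for intestine minus esophagus, 1 was at least 2-fold higher and 2 lower, with a median of −0.50, beside 8.40% and 11.5% of all genes. Under median centring 2 of 11 were higher and 0 lower with a median of 0.03, and after normexp correction 0 of 10 were higher and 3 lower, so this balance has no settled direction. For stomach minus esophagus 0 of 11 were either, beside 4.14% higher and 5.71% lower among all genes. For intestine minus stomach 1 of 11 was higher and 2 were lower, beside 4.77% and 7.18% of all genes. The same shares of all genes stand beside the counts of every list below. Sytl2, an effector of Rab27 on secretory granules, was the higher one in both comparisons of intestine. It had signals of 318 in intestine, 33.8 in stomach and 40.2 in esophagus, or differences of 1.60 from esophagus and 1.62 from stomach. Esyt2, a tether between endoplasmic reticulum and plasma membrane, read −1.35 and Sytl4 −1.26 for intestine minus esophagus.

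No SNARE with a value approached the contrast of Syt10. Of 12 neuronal and plasma membrane SNAREs with a value, 0 were higher by at least 2-fold in intestine than in esophagus, with a median of −0.11, and 0 of 12 were higher or lower by that fold in stomach against esophagus. Under median centring 3 of 12 were higher in intestine and 1 of 12 in stomach than in esophagus. Of 11 compared between intestine and stomach, 0 were either. Snap25, a SNARE of the neuronal plasma membrane, was not well above background in any organ, with signals of 6.93, 1.90 and 2.0 in intestine, stomach and esophagus. Of the SNARE regulators, 1 of 15 was higher and 1 lower by at least 2-fold in intestine than in esophagus. Cadps, a priming factor of dense-core vesicles, was the higher one at 1.39, and also the 1 of 16 that was higher in stomach than in esophagus, at 1.11. Cplx2, a complexin, was the lower one at −1.08. Between intestine and stomach 0 of 16 regulators were higher and 1 was lower, or 4 lower after normexp correction.

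Of the synaptic vesicle proteins, 2 of 10 were higher by at least 2-fold in intestine than in esophagus (0 higher and 2 lower after normexp correction), 1 of 10 in stomach than in esophagus, and 1 higher and 2 lower in intestine than in stomach. Syp, synaptophysin, read 1.12 for intestine minus esophagus and 1.15 for stomach minus esophagus, and Synpr 1.22 and 0.10. Of the dense-core granule list, 5 of 10 were higher by at least 2-fold in intestine than in esophagus, with 1 lower and a median of 1.18, beside 8.40% higher and 11.5% lower among all genes. The number higher was 7 of 10 under median centring, 6 of 10 under quantile normalization and 2 of 8 after normexp correction, where the median was 0.73. In stomach against esophagus 1 of 8 was higher (4 of 8 under median centring and quantile normalization) and 0 were lower, with a median of 0.68, and in intestine against stomach 2 of 10 were higher and 2 lower.

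The higher granule genes in intestine against esophagus were Ptprn2, Scg5, Chga, Ptprn and Cpe. Ptprn2, a membrane protein of granules, had a signal of 252 in intestine and was not well above background in stomach or esophagus, a bound of 3.78 log2 units against esophagus. Scg5, the helper protein of a prohormone convertase, had signals of 1559 in intestine, 541 in stomach and 118 in esophagus, with 2.34 for intestine minus esophagus and 2.43 for stomach minus esophagus. Chga, the granule protein chromogranin A, read 1.55 and Cpe, the prohormone-processing carboxypeptidase E, 1.5 for intestine minus esophagus.

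Igf1, whose secretion Syt10 controls in the olfactory bulb, went the other way. It had signals of 3106 in intestine, 3089 in stomach and 5197 in esophagus, or log2 levels of 1.60, 3.21 and 3.72. Esophagus was highest, and the differences were −2.12 for intestine minus esophagus, −0.52 for stomach minus esophagus and −1.61 for intestine minus stomach. Igf1 was the 1 granule-list gene lower by at least 2-fold in intestine than in esophagus.

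**Figure D4:**
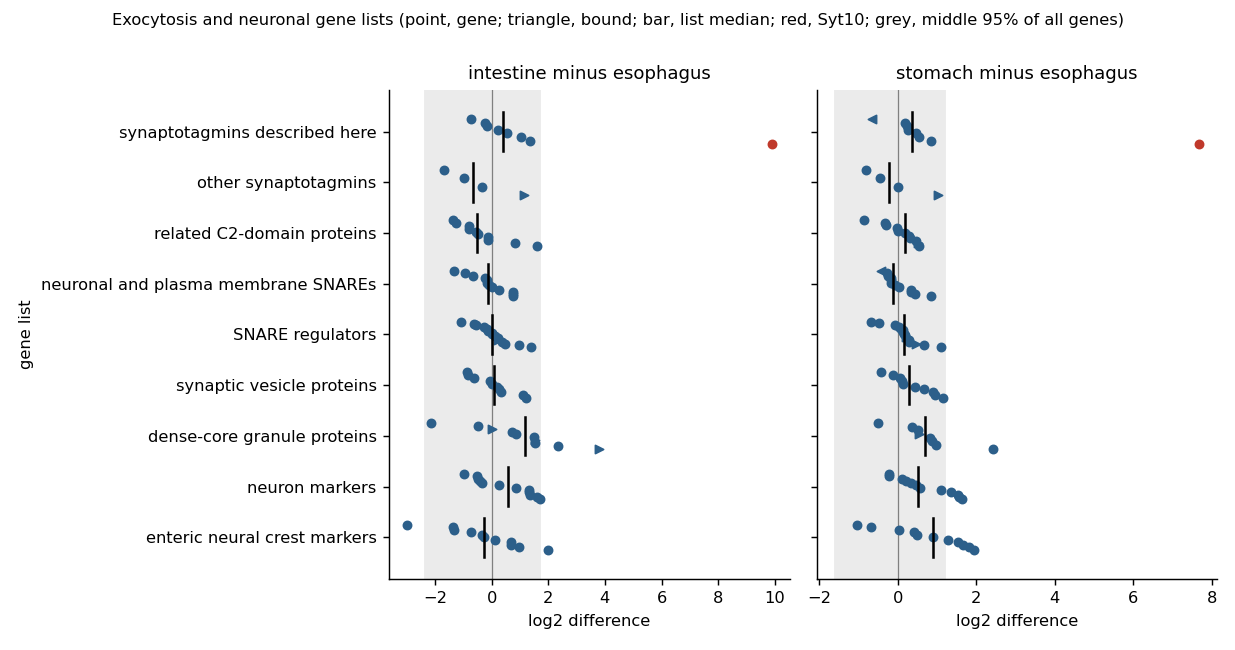
Each row is a gene list and each panel a comparison with esophagus, with the log2 difference on the x axis; points are genes, triangles bounds, black bars list medians, and the grey band the middle 95% of all genes. Syt10 (red) lies at 9.88 and 7.67, and the next highest values in the lists shown are the bound of Ptprn2 at 3.78 for intestine and Scg5 at 2.43 for stomach.

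Markers of cell types that use synaptotagmins differed by far less than Syt10. Of 12 neuron markers, 5 were higher by at least 2-fold in intestine than in esophagus and 5 in stomach than in esophagus, with medians of 0.57 and 0.51. Lower markers numbered 0 in either, or 1 in intestine under quantile normalization. Over all genes 8.40% were higher and 11.5% lower in intestine than in esophagus, and 4.14% and 5.71% in stomach than in esophagus. Their summed signal was 31.0 times the array's 75th percentile in intestine, 42.2 in stomach and 33.1 in esophagus. Tubb3, the neuronal tubulin, read 1.32 and 1.56, and Elavl4, a neuronal RNA-binding protein, 1.36 and 1.54 for intestine and stomach minus esophagus. For intestine minus esophagus 7 of the 12 read above 0 and 5 below 0, with Elavl2 lowest at −0.97. For stomach minus esophagus 10 read above 0 and 2 below. Relative to stomach, 1 neuron marker was higher and 2 were lower in intestine.

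Of 11 enteric neural crest markers, 1 was higher and 3 lower by at least 2-fold in intestine than in esophagus, beside 8.40% and 11.5% of all genes. In stomach against esophagus 5 were higher and 1 lower, beside 4.14% and 5.71%. For intestine against esophagus the balance reversed with scaling, to 4 higher and 1 lower under median centring and 4 higher and 3 lower under quantile normalization. In intestine against stomach 0 were higher and 4 lower, and the summed signal was 10.48, 15.4 and 15.8 times the 75th percentile in intestine, stomach and esophagus. Ret, the receptor of the migrating crest, read 0.68 for intestine minus esophagus and 1.94 for stomach minus esophagus. Hand2, a factor of enteric neurons and gut mesenchyme, read 2.0 and 1.81. The 3 lower markers in intestine than in esophagus were Erbb3 at −2.97, Gfra1 at −1.37 and Ednrb at −1.33. In that comparison 5 of the 11 read above 0 and 6 below 0.

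Of the endocrine progenitor markers, 2 of 7 were higher and 1 lower by at least 2-fold in intestine than in esophagus, beside 8.40% and 11.5% of all genes. In stomach against esophagus 1 of 6 was higher, beside 4.14%. Pyy, a gut hormone gene, read 2.33 for intestine minus esophagus and Insm1 1.06, while Gcg was the lower one at −1.50. Neurod1 and Pax4 were not well above background in any organ. In intestine against stomach 1 of 7 was higher and 2 were lower, and the summed signal was 3.42, 7.31 and 4.10 times the 75th percentile in intestine, stomach and esophagus.

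Liver markers in intestine and heart markers in esophagus differed more from the other samples. All 8 liver markers were higher by at least 2-fold in intestine than in esophagus and than in stomach, and in stomach against esophagus 1 of 7 was higher and 5 lower (2 lower after normexp correction). Their summed signal was 90.2, 9.96 and 11.3 times the 75th percentile in intestine, stomach and esophagus. All 8 heart markers were at least 2-fold lower in intestine and in stomach than in esophagus, with 4 lower in intestine than in stomach (1 under median centring and 7 after normexp correction) and sums of 1.1, 2.54 and 111. Of 10 gut epithelium markers, 1 was higher and 1 lower in intestine than in esophagus (5 higher and 1 lower under median centring), 4 higher and 0 lower in stomach than in esophagus, and 0 higher and 2 lower in intestine than in stomach, with sums of 52.1, 103 and 41.2. Of 10 gut mesenchyme markers, 2 were higher and 1 lower in intestine than in esophagus, 2 higher and 1 lower in stomach than in esophagus, and 2 higher and 0 lower in intestine than in stomach, with sums of 143, 116 and 161. Over all genes the shares higher and lower were 8.40% and 11.5% for intestine against esophagus, 4.14% and 5.71% for stomach against esophagus, and 4.77% and 7.18% for intestine against stomach. The part of these cell types in the level of Syt10 was not tested.

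Across the whole table the direction of small differences depended on the scaling. The intestine array had 74.0% of spots well above background, the stomach array 67.9% and the esophagus array 69.3%. In intestine against esophagus, 1215 genes were higher and 1666 lower by at least 2-fold, and the split was 3779 and 963 under median centring, 1859 and 1346 under quantile normalization and 655 and 1742 after normexp correction. In stomach against esophagus the counts were 569 higher and 784 lower, and 950 and 571, 824 and 672, and 161 and 272 under the same alternatives. In intestine against stomach they were 686 higher and 1033 lower, and 1264 and 577, 862 and 711, and 268 and 1752. Median centring moved the median of all genes by 0.49, 0.20 and 0.29 log2 units for intestine minus esophagus, stomach minus esophagus and intestine minus stomach. The list medians are given on the 75th percentile scale, and none near 0 is read here as a direction.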

How the data were processed

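Cy3-labelled RNA was read on 1-colour Agilent arrays. The deposited scanner files hold spot intensity values, per the file headers from version 10.5.1.1 of Agilent Feature Extraction, already corrected for background and array trends and not scaled between arrays. A deposited table holds log2 values of the same arrays, which the comparison with the scanner values showed to be signals minus the 75th percentile with no centring of probes. Here log2 of the processed signal was scaled to each array's 75th percentile, and control spots and outliers were dropped. Accessions were matched to RefSeq transcripts of GRCm38.p6, naming 24342 of 41112 probes, and the probe with the highest mean stood for a gene. All 3 arrays lay on 1 slide in 1 scan, so position on the slide and organ cannot be told apart. Genes named are the members, genes of the lists, the next-ranked gene per comparison, neighbours and the 5 nearest genes. Members and lists were chosen with earlier results of these data known. The difference rule was checked on simulated large changes of genes far above background, and its bounds on a few made-up values. Recovery of changes near background was not tested. Normexp (offset 50) came from limma 3.58.1 on median signals, and the rest from Python 3.11.15 with pandas 2.3.3. Tried alternatives were scaling, background correction, source of values, probe choice, the filter on dim probes and the fold. A list gene withheld for evaluation is not reported here.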

Additional observations from a re-analysis of the deposited data

How the results depend on the processing

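The Syt10 probe used was highest in intestine and lowest in esophagus under each scaling, background correction, filter and source of values run. Most of these could not have changed that order. The probe was well above background on every array, so both filters left its values as they were. The deposited table holds the same signals on the same scale, and median centring shifts a whole array by far less than these differences. The median of both probes averages in a probe that is not above background and bears on no order. For Syt10 the intestine minus esophagus difference of 9.88 became 10.38 under median centring, 7.92 after normexp correction and 4.34 with the median of both probes. Its stomach minus esophagus difference of 7.67 became 5.54 after normexp correction and 3.59 with the median of both probes, and intestine minus stomach went to 0.75 with that median, against 2.21. The other alternatives (quantile normalization, the deposited table and both filters) moved these by less than the median SD between probes of a gene. Members at least 2-fold apart between stomach and esophagus numbered 2 under median centring and 3 with no filter on dim probes, against 1. Over all genes, 950 of 13724 were higher and 571 lower under median centring. With no filter 975 of 16998 genes were higher and 1122 lower, against 569 and 784. Between intestine and esophagus 1 member was 4-fold apart, against 3 at 2-fold, where normexp correction and the median of probes gave 2 and median centring and quantile normalization 4. Between intestine and stomach the number of members was 1 when both arrays had to be well above background and 1 at 4-fold, against 2, and after normexp correction it was 3, of which 2 were lower. Requiring both arrays left 521 of 13273 genes higher and 927 lower there. Of 144 values of the other members under alternatives, 24 moved by more than that SD. With no filter, genes at least 2-fold lower in intestine numbered 3101 against esophagus and 2526 against stomach, and 975 were higher in stomach than in esophagus. No paired analysis was possible because each organ had 1 array. One array per organ limits precision throughout, and signals near background on 1 array, including that of the Syt10 probe used in esophagus, leave the size of a difference open to the background step. The causes of these shifts were not tested.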
